A study of Mus musculus with 11 samples.

Results

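Expression of hypoxia response and glycolysis genes was examined in mouse maxillary molar tooth germs at embryonic day 14.5 (E14.5), the cap stage. The set held 38 of the 16755 genes listed. It comprised 20 target genes of the hypoxia-inducible factors (HIFs), the HIF subunit gene *Hif1a*, and 17 genes of glycolytic enzymes and regulators. Members were taken by gene symbol, without a rule on measured values, but were chosen with earlier results of these data known. Their counts beside shares of all genes are therefore a description. All 38 were listed (*Ero1a* under its earlier symbol *Ero1l*), and no filter on low values was applied. RNA was sequenced from 4 wild-type (*Cilk1*+/+), 4 *Cilk1*-/- and 3 *Cilk1*-/-;PCS1-MRCS1 deletion (compound mutant) libraries, all on the C57BL/6 background with both sexes mixed. In *Cilk1*-/- mice, exon 6 of *Cilk1*, a kinase gene of the primary cilium, is deleted in germ cells by EIIa-Cre, so every cell of the embryo carries the deletion. The compound mutant carries the same *Cilk1* deletion and, in addition, both copies of a 70 kb deletion from PCS1 to MRCS1, which removes regulatory sequence of *Shh*, the Hedgehog ligand of the tooth epithelium. Each library pooled material with n = 6, and whether 6 counts germs or embryos is not stated. No group carried the PCS1-MRCS1 deletion alone.

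HIFs are dimers of an oxygen-sensitive alpha subunit, such as the product of *Hif1a*, and a stable beta subunit. Where oxygen is sufficient, prolyl hydroxylases of the EGLN family mark the alpha subunit for degradation, and where it is scarce the subunit accumulates, so HIF activity is set largely at the protein level. Their targets turn cells from mitochondrial respiration towards glycolysis, the breakdown of glucose to pyruvate and lactate, and promote vessel growth and collagen folding. In the cap-stage tooth germ, blood vessels run in the mesenchyme and do not enter the dental epithelium.

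The values analysed are log2(value + 1) of a normalised expression value, probably FPKM, a fragment number scaled to gene length and library size, and the read depth behind them is unknown. Precision therefore rests on the spread between libraries. *Cilk1*, listed under its earlier symbol *Ick*, lay between 3.45 and 3.6 in wild type, 2.72 and 2.86 in *Cilk1*-/-, and 2.6 and 2.67 in the compound mutant, with no overlap between wild type and either mutant. The defining markers of dental epithelium and dental mesenchyme were listed in all 11 libraries. Libraries of wild type and *Cilk1*-/- that carry one replicate number deviated from their genotype means in opposite directions, with correlations across the 38 members of -0.72, -0.94, -0.81 and -0.88 for numbers 1 to 4. The limma fit takes the libraries as independent, and the adjusted p from a fit blocked on replicate number (the replicate block) therefore stands beside each change. Among the compound mutant libraries, replicate 1 had a summed cartilage marker level of 702 on the linear scale, against 25.7 to 39.96 in the 8 wild-type and *Cilk1*-/- libraries, and a summed neuronal marker level of 194 against 17.4 to 31.1. Replicate 3 had the lowest summed erythroid marker level (1038 against 2819 to 4133 in the other 10 libraries) and the highest level of immediate early genes (139 against 60.1 to 86.5). The part of these differences in the results was not tested, and counts without each of these libraries are given. In bulk RNA, fewer cells of a type and less RNA per cell cannot be told apart.

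Promoter sequences of 4 HIF targets are shown for reference, with the letters ACGTG or GCGTG of the hypoxia response element in capitals. *Bnip3* and *Ddit4* are shown because no other member stayed called in the compound mutant once replicate number was a block. *Ankrd37* is shown because of its large difference. *Adm* is shown because its window holds GCGTG, though not ACGTG, and it did not pass the test. Each window runs from 250 bases before to 50 bases after a gene start of RefSeq on GRCm38.p6. It is printed 5′ to 3′ on the strand of the gene, and CACGT or CACGC is the same motif on the other strand. Overlapping matches, such as CACGTG or CACGCGTG, are joined. The windows are chr7:138909457-138909756 (minus strand), chr10:59951721-59952020 (minus strand), chr8:45999801-46000100 (minus strand) and chr7:110627407-110627706 (plus strand).
Bnip3: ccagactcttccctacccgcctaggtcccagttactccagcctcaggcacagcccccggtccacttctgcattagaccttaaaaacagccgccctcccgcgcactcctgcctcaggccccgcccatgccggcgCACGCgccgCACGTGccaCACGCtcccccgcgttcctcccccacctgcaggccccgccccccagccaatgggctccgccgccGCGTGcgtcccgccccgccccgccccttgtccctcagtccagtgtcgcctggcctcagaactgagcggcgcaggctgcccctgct
Ddit4: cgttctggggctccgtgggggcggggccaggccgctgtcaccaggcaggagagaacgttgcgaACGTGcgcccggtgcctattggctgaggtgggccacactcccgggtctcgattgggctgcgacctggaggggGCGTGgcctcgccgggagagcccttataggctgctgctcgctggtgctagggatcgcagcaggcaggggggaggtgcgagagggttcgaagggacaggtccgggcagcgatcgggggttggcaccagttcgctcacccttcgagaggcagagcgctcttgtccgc
Ankrd37: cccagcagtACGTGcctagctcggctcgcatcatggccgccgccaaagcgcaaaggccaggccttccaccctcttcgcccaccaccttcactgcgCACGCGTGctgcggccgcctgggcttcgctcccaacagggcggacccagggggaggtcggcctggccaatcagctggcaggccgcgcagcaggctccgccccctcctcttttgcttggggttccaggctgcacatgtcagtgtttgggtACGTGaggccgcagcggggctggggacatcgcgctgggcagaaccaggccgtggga
Adm: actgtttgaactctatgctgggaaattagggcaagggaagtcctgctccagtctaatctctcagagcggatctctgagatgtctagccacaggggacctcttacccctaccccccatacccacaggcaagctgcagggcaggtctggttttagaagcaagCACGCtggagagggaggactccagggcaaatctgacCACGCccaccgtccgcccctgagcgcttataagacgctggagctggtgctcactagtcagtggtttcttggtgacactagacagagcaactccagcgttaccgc

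In the *Bnip3* window, matches began at positions -117, -108, -99 and -35 from the gene start, the second of them a palindrome that reads the same on both strands. The *Ddit4* window held matches at -187 and -115, the *Ankrd37* window at -241, -155 and -6, and the *Adm* window at -90 and -54. Of the 38 members, 34 had a window in the table used, and 32 of these 34 (94.1%) had a match in at least one window, including all 16 HIF targets with a window and 15 of 17 glycolytic genes (not *Gpi1* or *Tpi1*). Across the whole table, 46.7% of 27025 genes had one. Counted by window, 41 of 52 member windows (78.8%) and 43.8% of all 32851 windows held the letters. Member windows were also richer in G and C, with a median GC content of 67.5% for HIF targets and 61.0% for glycolytic genes against 52.7% for all windows. A match is a description of the letters and not of binding. *Bnip3l*, *Ndufa4l2*, *Slc2a3* and *Bhlhe40* had no window in the table.

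Both mutants were compared with wild type to ask whether the tooth germs differed in these genes. A gene is said to have risen or fallen where its adjusted p from limma was under 0.05, and is called where the difference was also at least 1.5-fold. In the compound mutant, 8 of 38 members were called, all of them higher: the HIF targets *Bnip3*, *Ankrd37*, *P4ha1*, *P4ha2*, *Ddit4*, *Slc2a1* and *Slc16a3*, and the glycolytic regulator *Pfkfb3*. Of all 16755 genes, 0.615% were called higher and 0.633% lower in this comparison. With no limit on the fold, 20 members rose (14 HIF targets and 6 glycolytic genes, against 2.82% of all genes) and 0 fell (3.75% of all genes). The count of 20 was 1 (*Bnip3*) with only these groups in the fit, where 0.245% of all genes passed in either direction, and 1 (*Bnip3*) with a term for the protocol set, the libraries that share a protocol text (0.119%). It was 8 without wild-type replicate 2 (1.88%) or replicate 4 (1.34%). All 38 members had a higher mean in the compound mutant, as did 49.4% of all genes. In 23 members every compound mutant library exceeded every wild-type library, and in 0 the reverse held, against 8.92% and 9.05% of all genes.

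In *Cilk1*-/-, 0 of 38 members were called in limma (0.155% of all genes higher and 0.215% lower). With no limit on the fold, 5 members rose, namely *Bnip3*, *Vegfa*, *Pdk1*, *Kdm3a* and *Aldoa*, against 1.06% of all genes, and 0 fell, against 1.38%. Fitted on only these groups, 17 members rose and *Adm* fell, in a fit where 15.2% of all genes passed in either direction. With quantile normalisation 9 members rose (2.3% of all genes), with median centring 3 (1.65%) and with the protocol-set term 2 (0.668%). An unadjusted p under 0.05 was reached by 19 higher members and 1 lower member, *Adm*, where 9.57% and 11.1% of all genes did so. The mean was higher in 36 of 38 members (51.2% of all genes), and the exceptions were *Adm* and *Slc2a3*. Every *Cilk1*-/- library exceeded every wild-type library in 14 members (10.2% of all genes) and lay below in 1 (10.7%). The count of 5 was lower in most fits with 1 wild-type or *Cilk1*-/- library left out. Only *Bnip3* rose without *Cilk1*-/- replicate 2, 3 or 4 or without wild-type replicate 2 or 4, where 0.185% to 0.269% of all genes passed in either direction, and 2 and 3 members rose without wild-type replicates 3 (0.316%) and 1 (1.25%). It was 8, 11 and 9 without compound mutant replicates 1, 2 and 3, which enter through the shared estimate of the spread, and the share of all genes rose with it to 5.43%, 6.93% and 6.25%.

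The replicate block removed most of these calls. With it, 0 members rose in *Cilk1*-/- (0.0179% of all genes), and 16 kept an unadjusted p under 0.05 (6.21%). In the compound mutant, only *Bnip3* and *Ddit4* were still called (0.0418% of all genes higher), and 24 members had an unadjusted p under 0.05 (8.27%), compared with 25 without the block (12.9% of all genes higher and 13.8% lower). When the compound mutant libraries, which share a protocol text with replicate 4 of the other genotypes, were put in the block of that replicate, 0 members and 0 genes (0%) were called, and 20 members had an unadjusted p under 0.05 (3.41% of all genes higher). Without compound mutant replicate 1, 9 members were called, with *Hk2* added (1.02% of all genes in either direction), and without replicate 3, 9 were called, with *Aldoc* added (2.02%). Without replicate 2, 7 were called, with *Aldoc* added and *Ddit4* and *Slc2a1* lost (4.0%). Without wild-type replicate 2 or replicate 4, 5 remained (*Bnip3*, *Ankrd37*, *P4ha2*, *Ddit4* and *Pfkfb3*, with 0.567% and 0.477% of all genes). *Bnip3*, *Ankrd37*, *P4ha2* and *Pfkfb3* were called in each of the 11 fits that left out one library. The share of all genes called in each of these fits was not computed, so this is not read as a trait of these members.

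**Figure D1:**
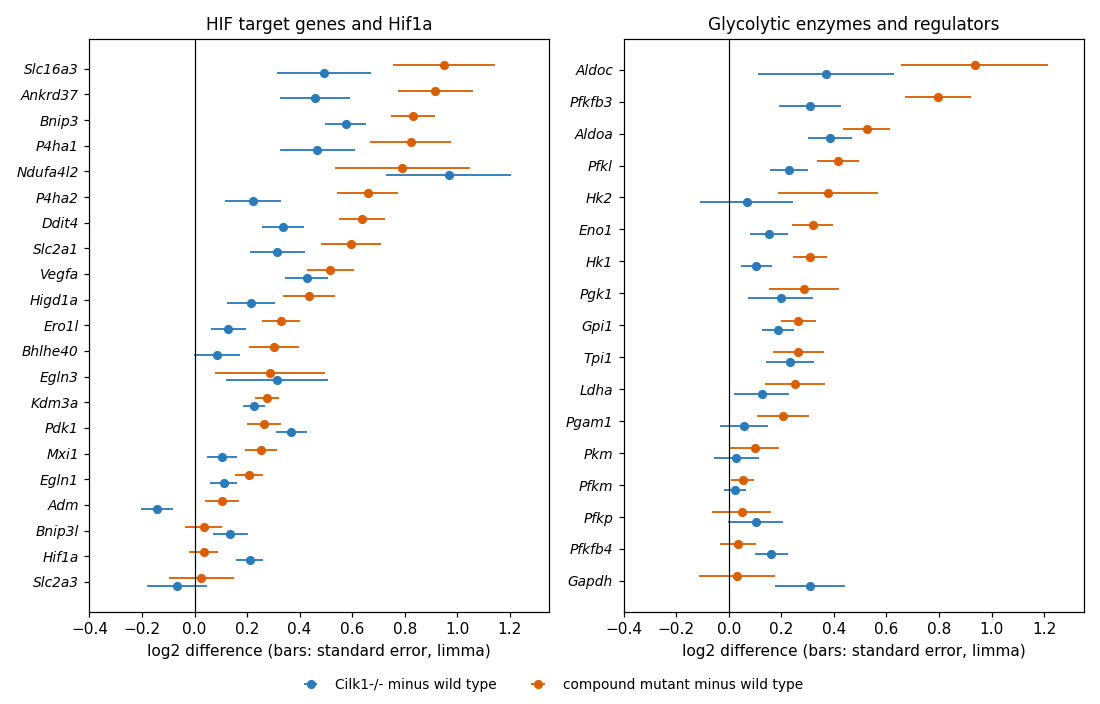
Log2 difference from wild type (x axis) for each member (y axis) in Cilk1-/- (blue) and the compound mutant (orange), with standard errors of the limma fit on 11 libraries. All 38 orange points and 36 of 38 blue points lie above 0. Both comparisons share the wild-type libraries.

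As a group, the median log2 difference of HIF targets from wild type was 0.27 for *Cilk1*-/- and 0.38 for the compound mutant, and glycolytic genes had 0.16 and 0.26. The median over all genes was 0.00 in both comparisons. By library, the median over the 20 HIF targets relative to the wild-type mean lay between -0.08 and 0.06 in wild type, 0.21 and 0.36 in *Cilk1*-/-, and 0.33 and 0.57 in the compound mutant. The wild-type libraries thus lay apart from all others, whereas the mutant groups overlapped. For glycolysis the ranges were -0.06 to 0.12, 0.12 to 0.23 and 0.16 to 0.48, and wild-type replicate 3 slightly exceeded the lowest *Cilk1*-/- library. The top of each range in the compound mutant came from replicate 2.

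**Figure D2:**
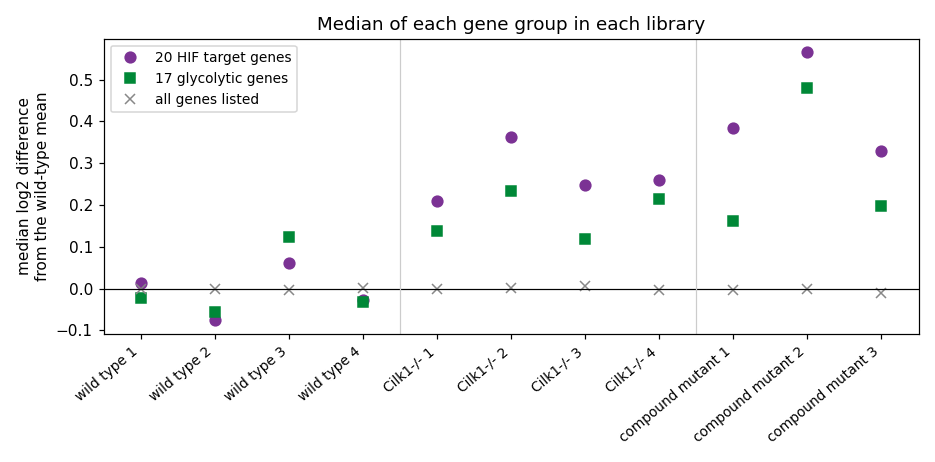
Median log2 difference from the wild-type mean (y axis) in each of the 11 libraries (x axis) for the 20 HIF targets, the 17 glycolytic genes and all genes. Medians of HIF targets lie at or below 0.06 in wild type and at or above 0.21 in the mutants, and the median over all genes lies near 0 in every library.

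Among HIF targets that act on mitochondria, *Bnip3* and *Pdk1* rose in both mutants. Over the 11 fits that left out a library, *Bnip3* kept an adjusted p under 0.05 in 11 in both mutants. *Pdk1* did so in 6 in *Cilk1*-/- and in 5 in the compound mutant, and *Higd1a* in 7 in the compound mutant. *Bnip3*, which encodes an outer-membrane protein that marks mitochondria for removal, was listed at 4.31, 4.13, 4.45 and 4.22 in wild type, 4.76, 4.98, 4.74 and 4.93 in *Cilk1*-/- and 5.05, 5.21 and 5.07 in the compound mutant. All 8 wild-type and *Cilk1*-/- libraries lay below the 3 compound mutant libraries, and all *Cilk1*-/- libraries lay above wild type. *Bnip3* differed from wild type by 0.58 (SE 0.0776, adjusted p = 0.0111, 0.103 with the replicate block) in *Cilk1*-/- and by 0.83 (SE 0.0838, adjusted p = 0.00176, 0.0341 with the replicate block) in the compound mutant. These differences equal 1.49-fold and 1.78-fold. *Pdk1*, the kinase that inhibits pyruvate dehydrogenase and so keeps pyruvate from mitochondrial oxidation, was listed at 4.21, 4.14, 4.31 and 4.23 in wild type, 4.49, 4.68, 4.55 and 4.64 in *Cilk1*-/- and 4.42, 4.61 and 4.43 in the compound mutant. Both mutants lay entirely above wild type, and 2 of 3 compound mutant libraries lay below the *Cilk1*-/- range. *Pdk1* differed from wild type by 0.37 (SE 0.0595, adjusted p = 0.0166, 0.134 with the replicate block) in *Cilk1*-/- and by 0.27 (SE 0.0642, adjusted p = 0.0382, 0.155 with the replicate block) in the compound mutant. *Higd1a*, a small protein of the respiratory chain supercomplexes, was listed at 4.13, 4.0, 4.28 and 3.94 in wild type, 4.22, 4.46, 4.22 and 4.32 in *Cilk1*-/- and 4.47, 4.7 and 4.4 in the compound mutant. The compound mutant lay above all wild-type libraries, whereas *Cilk1*-/- overlapped wild type. *Higd1a* differed from wild type by 0.22 (SE 0.0903, adjusted p = 0.209) in *Cilk1*-/- and by 0.44 (SE 0.0975, adjusted p = 0.0306, 0.155 with the replicate block) in the compound mutant. *Ndufa4l2*, a HIF-induced relative of a cytochrome oxidase subunit, was listed at 4.38, 4.14, 4.81 and 4.13 in wild type, 4.81, 5.65, 5.28 and 5.59 in *Cilk1*-/- and 4.9, 4.88 and 5.69 in the compound mutant. Its mean difference in *Cilk1*-/- was the largest of the 38 members, but its libraries spread widely in every genotype, and the lowest *Cilk1*-/- library was level with the highest wild-type library. *Ndufa4l2* differed from wild type by 0.97 (SE 0.238, adjusted p = 0.0599) in *Cilk1*-/- and by 0.79 (SE 0.257, adjusted p = 0.0891) in the compound mutant. *Bnip3l*, the paralog of *Bnip3*, ranged from 5.12 to 5.46 over the 11 libraries and differed from wild type by 0.14 (SE 0.0663, adjusted p = 0.277) in *Cilk1*-/- and 0.03 (SE 0.0716, adjusted p = 0.791) in the compound mutant.

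Among oxygen-sensing and feedback genes, *Kdm3a* rose in both mutants, and *Egln1* and *Ankrd37* rose in the compound mutant. Over the 11 fits that left out a library, *Kdm3a* kept an adjusted p under 0.05 in 4 in *Cilk1*-/- and in 11 in the compound mutant. In the compound mutant, *Ankrd37* did so in 11 and *Egln1* in 1. *Hif1a*, the oxygen-regulated alpha subunit, was listed at 5.39, 5.37, 5.45 and 5.43 in wild type, 5.6, 5.64, 5.57 and 5.67 in *Cilk1*-/- and 5.3, 5.51 and 5.52 in the compound mutant. All *Cilk1*-/- libraries lay above both other genotypes, and the compound mutant had 2 libraries above and 1 below the wild-type range. *Hif1a* differed from wild type by 0.21 (SE 0.0512, adjusted p = 0.0584) in *Cilk1*-/- and by 0.03 (SE 0.0553, adjusted p = 0.726) in the compound mutant. *Hif1a* was lower in the compound mutant than in *Cilk1*-/- with a difference of -0.18 (SE 0.0553, adjusted p = 0.1). *Egln1*, the main prolyl hydroxylase that acts on HIF alpha subunits, was listed at 4.52, 4.54, 4.65 and 4.64 in wild type, 4.74, 4.75, 4.64 and 4.66 in *Cilk1*-/- and 4.74, 4.91 and 4.74 in the compound mutant. The compound mutant lay above wild type, and *Cilk1*-/- overlapped it. *Egln1* differed from wild type by 0.11 (SE 0.0505, adjusted p = 0.245) in *Cilk1*-/- and by 0.21 (SE 0.0545, adjusted p = 0.0491, 0.189 with the replicate block) in the compound mutant. *Egln3*, a hypoxia-inducible relative of *Egln1*, was listed at 2.22, 2.37, 2.56 and 2.65 in wild type, 2.95, 2.87, 2.74 and 2.51 in *Cilk1*-/- and 2.71, 3.27 and 2.23 in the compound mutant. Compound mutant replicate 2 was the highest of all libraries, while replicate 3 was close to the lowest wild-type library. *Egln3* differed from wild type by 0.32 (SE 0.195, adjusted p = 0.395) in *Cilk1*-/- and by 0.29 (SE 0.21, adjusted p = 0.398) in the compound mutant. *Kdm3a*, a HIF-induced histone H3 lysine 9 demethylase, was listed at 4.27, 4.29, 4.24 and 4.26 in wild type, 4.47, 4.44, 4.5 and 4.55 in *Cilk1*-/- and 4.56, 4.62 and 4.45 in the compound mutant. Wild type was tightly grouped, and all 7 mutant libraries lay above it. *Kdm3a* differed from wild type by 0.23 (SE 0.0416, adjusted p = 0.0253, 0.161 with the replicate block) in *Cilk1*-/- and by 0.28 (SE 0.0449, adjusted p = 0.0106, 0.105 with the replicate block) in the compound mutant. *Ankrd37*, an ankyrin repeat protein gene with a strong hypoxia response, was listed at 1.92, 2.18, 1.93 and 2.18 in wild type, 2.69, 2.39, 2.67 and 2.28 in *Cilk1*-/- and 3.11, 3.14 and 2.65 in the compound mutant. All mutant libraries exceeded wild type, and the lowest compound mutant library fell within the *Cilk1*-/- range. *Ankrd37* differed from wild type by 0.46 (SE 0.133, adjusted p = 0.0938) in *Cilk1*-/- and by 0.92 (SE 0.143, adjusted p = 0.0094, 0.0845 with the replicate block) in the compound mutant. The difference in the compound mutant equals 1.89-fold.

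Of the transcriptional repressors induced by HIF, *Mxi1*, an antagonist of MYC, was listed at 3.31, 3.42, 3.3 and 3.27 in wild type, 3.41, 3.32, 3.47 and 3.52 in *Cilk1*-/- and 3.53, 3.53 and 3.67 in the compound mutant. The compound mutant lay above both other genotypes, with its lowest library just above the highest of *Cilk1*-/-. *Mxi1* differed from wild type by 0.10 (SE 0.0564, adjusted p = 0.33) in *Cilk1*-/- and by 0.25 (SE 0.061, adjusted p = 0.0377, 0.169 with the replicate block) in the compound mutant. The latter kept an adjusted p under 0.05 in 3 of the 11 fits that left out a library. *Bhlhe40*, a circadian and hypoxia-responsive repressor, was listed at 3.0, 3.27, 3.38 and 3.29 in wild type, 3.34, 3.32, 3.29 and 3.34 in *Cilk1*-/- and 3.39, 3.74 and 3.49 in the compound mutant. *Cilk1*-/- lay within the wild-type range, and the compound mutant lay just above it. *Bhlhe40* differed from wild type by 0.09 (SE 0.0879, adjusted p = 0.634) in *Cilk1*-/- and by 0.30 (SE 0.0949, adjusted p = 0.0803) in the compound mutant. *Bhlhe40* did not pass the test in either mutant. Secreted signals differed from each other. *Vegfa*, the main growth factor of endothelial cells, was listed at 5.67, 5.4, 5.57 and 5.4 in wild type, 5.77, 6.05, 5.9 and 6.03 in *Cilk1*-/- and 5.94, 6.15 and 5.99 in the compound mutant. Both mutants lay entirely above wild type and overlapped each other. *Vegfa* differed from wild type by 0.43 (SE 0.0819, adjusted p = 0.0293, 0.161 with the replicate block) in *Cilk1*-/- and by 0.52 (SE 0.0884, adjusted p = 0.0131, 0.111 with the replicate block) in the compound mutant. Over the 11 fits that left out a library, *Vegfa* kept an adjusted p under 0.05 in 5 in *Cilk1*-/- and in 11 in the compound mutant. *Adm*, which encodes the vasodilator peptide adrenomedullin, was near the bottom of the scale, at 0.41 to 0.85 over all libraries. *Adm* lay lower in all 4 *Cilk1*-/- libraries than in wild type, with a difference of -0.14 (SE 0.0601, adjusted p = 0.213), and in the compound mutant the difference was 0.11 (SE 0.065, adjusted p = 0.319).

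**Figure D3:**
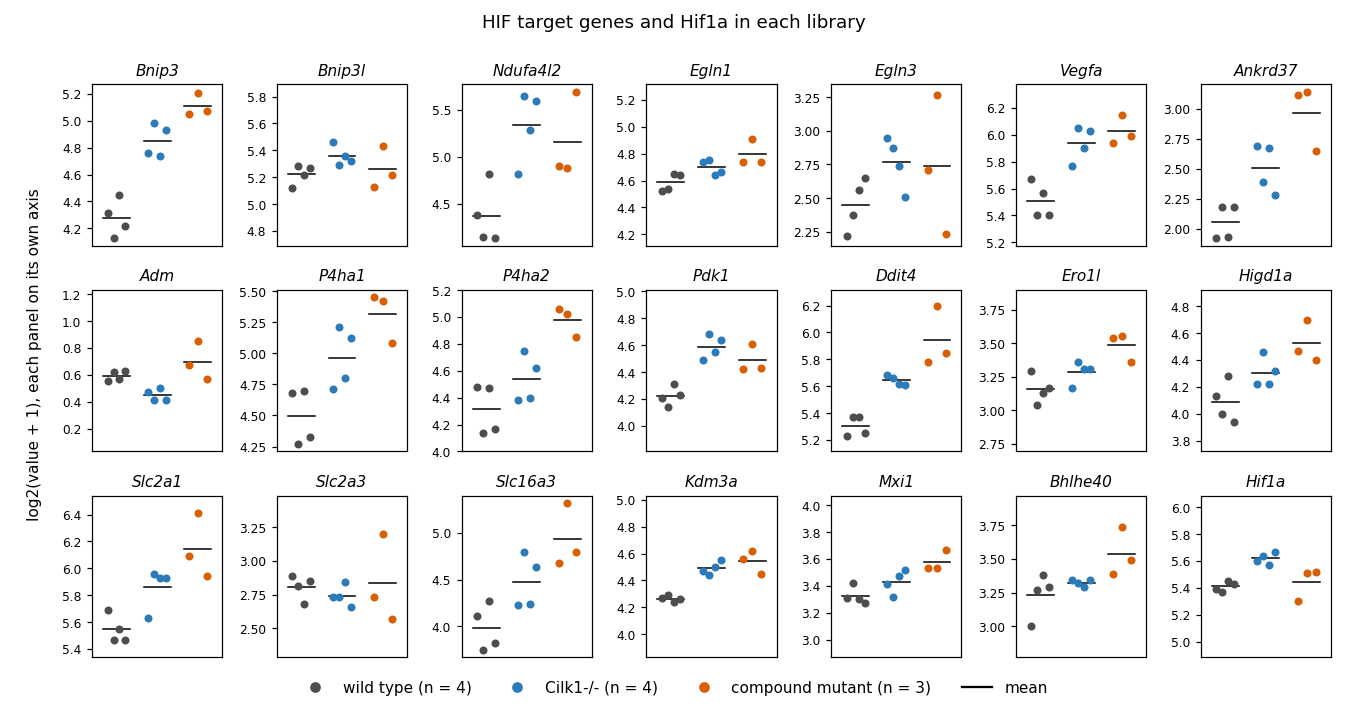
Log2(value + 1) (y axis, a separate range in each panel) of the 20 HIF targets and Hif1a in 4 wild-type (grey), 4 Cilk1-/- (blue) and 3 compound mutant (orange) libraries, with the group mean as a line. In the panels of Bnip3 and Ddit4 the compound mutant points lie above all others, Hif1a is highest in Cilk1-/-, and the groups overlap for Slc2a3.

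Enzymes of collagen and disulfide formation rose in the compound mutant. Over the 11 fits that left out a library, *P4ha2* and *Ddit4* kept an adjusted p under 0.05 there in 11, *P4ha1* in 9 and *Ero1l* in 7. *P4ha1*, the catalytic alpha subunit of prolyl 4-hydroxylase, which stabilises the collagen helix, was listed at 4.68, 4.27, 4.7 and 4.33 in wild type, 4.71, 5.21, 4.8 and 5.12 in *Cilk1*-/- and 5.45, 5.42 and 5.08 in the compound mutant. The lowest *Cilk1*-/- library was just above the highest wild-type library, and the compound mutant lay well above wild type. *P4ha1* differed from wild type by 0.47 (SE 0.143, adjusted p = 0.104) in *Cilk1*-/- and by 0.82 (SE 0.154, adjusted p = 0.0177, 0.125 with the replicate block) in the compound mutant. *P4ha2*, a second alpha subunit of that enzyme, was listed at 4.48, 4.14, 4.47 and 4.17 in wild type, 4.38, 4.75, 4.4 and 4.62 in *Cilk1*-/- and 5.06, 5.02 and 4.85 in the compound mutant. Here *Cilk1*-/- overlapped wild type, and the compound mutant lay above both. *P4ha2* differed from wild type by 0.22 (SE 0.107, adjusted p = 0.267) in *Cilk1*-/- and by 0.66 (SE 0.115, adjusted p = 0.0139, 0.118 with the replicate block) in the compound mutant. *P4ha2* was higher in the compound mutant than in *Cilk1*-/- by 0.44 (SE 0.115, adjusted p = 0.0637). *Ero1l*, which encodes the oxidase that reforms disulfide bonds in the endoplasmic reticulum, was listed at 3.29, 3.04, 3.13 and 3.17 in wild type, 3.17, 3.36, 3.31 and 3.31 in *Cilk1*-/- and 3.54, 3.55 and 3.36 in the compound mutant. The lowest compound mutant library was level with the highest *Cilk1*-/- library at 2 decimals, and *Cilk1*-/- overlapped wild type. *Ero1l* differed from wild type by 0.13 (SE 0.0666, adjusted p = 0.303) in *Cilk1*-/- and by 0.33 (SE 0.0719, adjusted p = 0.0286, 0.155 with the replicate block) in the compound mutant. *Ddit4*, also known as Redd1, an inhibitor of the growth kinase complex mTORC1, was listed at 5.23, 5.37, 5.37 and 5.25 in wild type, 5.68, 5.66, 5.62 and 5.61 in *Cilk1*-/- and 5.78, 6.2 and 5.85 in the compound mutant. The genotypes formed an order without overlap, wild type below *Cilk1*-/- and *Cilk1*-/- below the compound mutant. *Ddit4* differed from wild type by 0.34 (SE 0.0806, adjusted p = 0.0552) in *Cilk1*-/- and by 0.64 (SE 0.087, adjusted p = 0.00519, 0.0436 with the replicate block) in the compound mutant. *Ddit4* was 1.56-fold higher in the compound mutant than in wild type, and relative to *Cilk1*-/- its difference in the compound mutant was 0.30 (SE 0.087, adjusted p = 0.0826). *Ddit4* and *P4ha1* both lie on chromosome 10, 576 kb apart.

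Among transporters of glucose and lactate, *Slc2a1* and *Slc16a3* were called in the compound mutant and *Slc2a3* did not pass the test. *Slc2a1* and *Slc16a3* each kept an adjusted p under 0.05 there in 9 of the 11 fits that left out a library. *Slc2a1*, which encodes the glucose transporter GLUT1, was listed at 5.69, 5.47, 5.55 and 5.47 in wild type, 5.63, 5.96, 5.93 and 5.93 in *Cilk1*-/- and 6.09, 6.41 and 5.94 in the compound mutant. Replicate 1 stood below the other 3 *Cilk1*-/- libraries and inside the wild-type range, and the compound mutant lay above wild type. *Slc2a1* differed from wild type by 0.32 (SE 0.105, adjusted p = 0.13) in *Cilk1*-/- and by 0.60 (SE 0.114, adjusted p = 0.0186, 0.118 with the replicate block) in the compound mutant. *Slc16a3*, the lactate exporter MCT4, was listed at 4.11, 3.75, 4.27 and 3.82 in wild type, 4.23, 4.8, 4.24 and 4.64 in *Cilk1*-/- and 4.68, 5.32 and 4.8 in the compound mutant. This was the largest difference of any HIF target in the compound mutant, whose libraries all lay above wild type, whereas 2 *Cilk1*-/- libraries lay within the wild-type range. *Slc16a3* differed from wild type by 0.49 (SE 0.18, adjusted p = 0.155) in *Cilk1*-/- and by 0.95 (SE 0.194, adjusted p = 0.0224, 0.125 with the replicate block) in the compound mutant. For *Slc16a3* the compound mutant difference equals 1.93-fold. *Slc2a3*, which encodes the neuronal-type glucose transporter GLUT3, ranged from 2.57 to 3.2 and differed by -0.07 (SE 0.115, adjusted p = 0.791) in *Cilk1*-/- and 0.03 (SE 0.124, adjusted p = 0.919) in the compound mutant.

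The first steps of glycolysis trap and rearrange glucose. *Hk1*, the constitutive hexokinase, was listed at 4.09, 4.0, 3.96 and 4.07 in wild type, 4.06, 4.2, 4.17 and 4.11 in *Cilk1*-/- and 4.49, 4.23 and 4.3 in the compound mutant. The compound mutant lay above both other genotypes. *Hk1* differed from wild type by 0.10 (SE 0.0596, adjusted p = 0.356) in *Cilk1*-/- and by 0.31 (SE 0.0644, adjusted p = 0.0244, 0.148 with the replicate block) in the compound mutant. *Hk2*, the inducible hexokinase, was listed at 3.5, 3.6, 3.84 and 3.42 in wild type, 3.68, 3.67, 3.45 and 3.83 in *Cilk1*-/- and 3.45, 4.04 and 4.41 in the compound mutant. Compound mutant replicate 1 lay near the bottom of the wild-type range, and replicates 2 and 3 lay above all other libraries. *Hk2* differed from wild type by 0.07 (SE 0.177, adjusted p = 0.877) in *Cilk1*-/- and by 0.38 (SE 0.191, adjusted p = 0.231) in the compound mutant. Without replicate 1, the *Hk2* difference in the compound mutant was 0.63 (adjusted p = 0.0361, limma), and *Hk2* was then called. *Gpi1*, glucose-6-phosphate isomerase, was listed at 6.28, 6.39, 6.45 and 6.33 in wild type, 6.59, 6.54, 6.49 and 6.58 in *Cilk1*-/- and 6.56, 6.79 and 6.53 in the compound mutant. Both mutants lay above wild type and overlapped each other. *Gpi1* differed from wild type by 0.19 (SE 0.0615, adjusted p = 0.125) in *Cilk1*-/- and by 0.26 (SE 0.0664, adjusted p = 0.0434, 0.169 with the replicate block) in the compound mutant. *Pfkl*, the liver-type phosphofructokinase, which commits sugar to glycolysis, was listed at 5.45, 5.43, 5.61 and 5.46 in wild type, 5.68, 5.82, 5.62 and 5.74 in *Cilk1*-/- and 5.84, 6.09 and 5.78 in the compound mutant. Both mutants lay above wild type, *Cilk1*-/- only narrowly. *Pfkl* differed from wild type by 0.23 (SE 0.0738, adjusted p = 0.119) in *Cilk1*-/- and by 0.42 (SE 0.0797, adjusted p = 0.0187, 0.114 with the replicate block) in the compound mutant. The other phosphofructokinase genes did not pass the test, *Pfkm* with a range of 4.66 to 4.84 and *Pfkp* with 2.48 to 3.02 over the 11 libraries.

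*Pfkfb3*, which makes fructose 2,6-bisphosphate, the activator of phosphofructokinase, was listed at 2.7, 2.58, 2.64 and 2.5 in wild type, 2.82, 2.93, 2.88 and 3.01 in *Cilk1*-/- and 3.07, 3.74 and 3.39 in the compound mutant. The genotypes did not overlap, with the compound mutant highest and replicate 2 highest within it. *Pfkfb3* differed from wild type by 0.31 (SE 0.117, adjusted p = 0.167) in *Cilk1*-/- and by 0.80 (SE 0.126, adjusted p = 0.00981, 0.0797 with the replicate block) in the compound mutant. *Pfkfb3*, at 1.74-fold, was the sole glycolytic member called. Against *Cilk1*-/-, *Pfkfb3* differed in the compound mutant by 0.49 (SE 0.126, adjusted p = 0.0614). Its relative *Pfkfb4* ranged from 2.42 to 2.69, with differences of 0.16 (SE 0.0619, adjusted p = 0.174) in *Cilk1*-/- and 0.03 (SE 0.0669, adjusted p = 0.774) in the compound mutant. Aldolases split the sugar into trioses. *Aldoa*, the main aldolase of most tissues, was listed at 7.64, 7.56, 7.84 and 7.55 in wild type, 7.98, 8.14, 7.92 and 8.1 in *Cilk1*-/- and 8.06, 8.33 and 8.13 in the compound mutant. Both mutants lay above wild type. *Aldoa* differed from wild type by 0.38 (SE 0.083, adjusted p = 0.0433, 0.184 with the replicate block) in *Cilk1*-/- and by 0.53 (SE 0.0896, adjusted p = 0.013, 0.105 with the replicate block) in the compound mutant. The annotation holds a second entry under the symbol *Aldoa*, so its reads could be divided. *Aldoc*, the aldolase of brain, was listed at 2.95, 2.68, 2.78 and 2.54 in wild type, 2.85, 3.23, 3.13 and 3.21 in *Cilk1*-/- and 4.57, 3.26 and 3.19 in the compound mutant. Compound mutant replicate 1 stood over 1 above the next library, and this library also had the highest neuronal marker sum. *Aldoc* differed from wild type by 0.37 (SE 0.259, adjusted p = 0.461) in *Cilk1*-/- and by 0.94 (SE 0.28, adjusted p = 0.0702) in the compound mutant. Without replicate 1, *Aldoc* differed by 0.49 (adjusted p = 0.0562, limma).

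**Figure D4:**
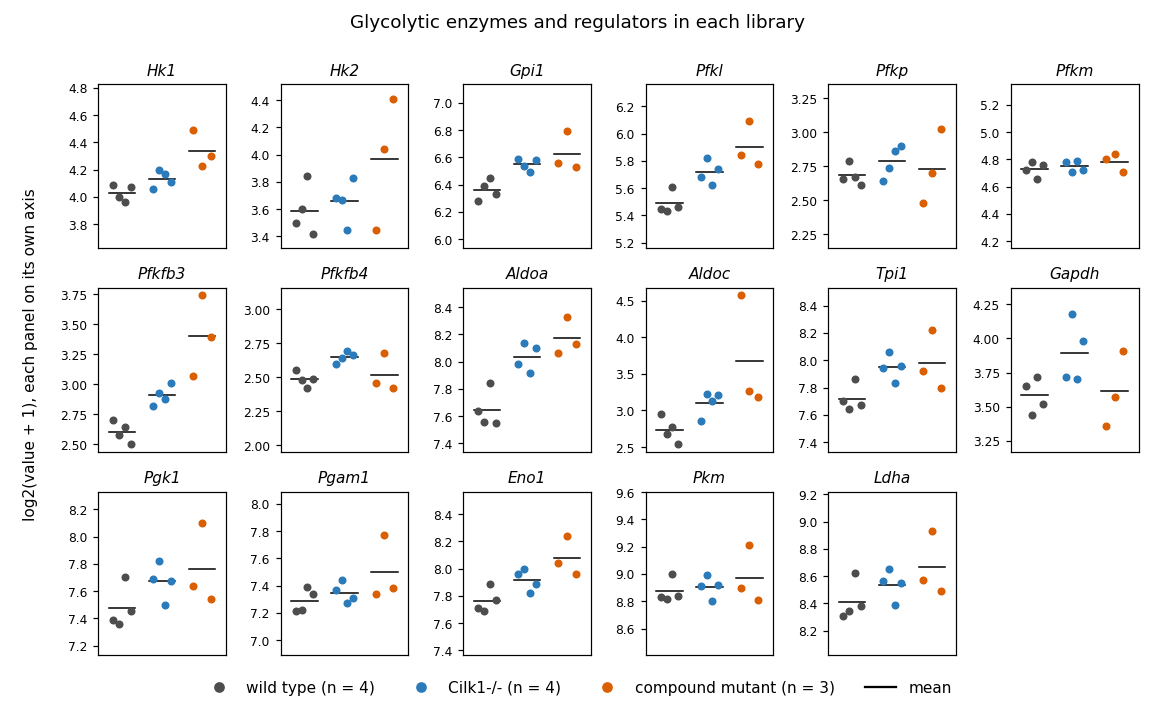
Log2(value + 1) (y axis, a separate range in each panel) of the 17 glycolytic genes in 4 wild-type (grey), 4 Cilk1-/- (blue) and 3 compound mutant (orange) libraries, with the group mean as a line. Pfkfb3 is separated by genotype, Aldoc has 1 compound mutant library at 4.57, and Pgk1, Pkm and Ldha overlap with compound mutant replicate 2 on top.

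The later enzymes, which carry trioses to pyruvate and lactate, were among the most highly listed members and mostly did not pass the test. *Tpi1*, triose-phosphate isomerase, was listed at 7.7, 7.64, 7.86 and 7.67 in wild type, 7.94, 8.06, 7.83 and 7.96 in *Cilk1*-/- and 7.92, 8.22 and 7.8 in the compound mutant. All genotypes overlapped. *Tpi1* differed from wild type by 0.23 (SE 0.0904, adjusted p = 0.178) in *Cilk1*-/- and by 0.26 (SE 0.0976, adjusted p = 0.123) in the compound mutant. *Pgk1*, phosphoglycerate kinase, was listed at 7.39, 7.36, 7.7 and 7.45 in wild type, 7.69, 7.82, 7.5 and 7.67 in *Cilk1*-/- and 7.64, 8.1 and 7.54 in the compound mutant. Wild-type replicate 3 and compound mutant replicate 2 stood high within their groups, and the groups overlapped. *Pgk1* differed from wild type by 0.20 (SE 0.123, adjusted p = 0.4) in *Cilk1*-/- and by 0.29 (SE 0.133, adjusted p = 0.2) in the compound mutant. *Eno1*, enolase, was listed at 7.71, 7.69, 7.89 and 7.77 in wild type, 7.96, 8.0, 7.82 and 7.89 in *Cilk1*-/- and 8.04, 8.24 and 7.96 in the compound mutant. The compound mutant lay above wild type, and *Cilk1*-/- overlapped it. *Eno1* differed from wild type by 0.15 (SE 0.0714, adjusted p = 0.259) in *Cilk1*-/- and by 0.32 (SE 0.0772, adjusted p = 0.038, 0.172 with the replicate block) in the compound mutant. The near-identical copy *Eno1b*, listed separately, differed in the compound mutant by 0.33 (SE 0.0642, adjusted p = 0.0196, 0.148 with the replicate block), so the division of reads between them is uncertain. *Ldha*, lactate dehydrogenase A, which regenerates NAD by making lactate, was listed at 8.31, 8.34, 8.62 and 8.38 in wild type, 8.56, 8.65, 8.39 and 8.55 in *Cilk1*-/- and 8.57, 8.93 and 8.49 in the compound mutant. The highest value was again in compound mutant replicate 2, and all groups overlapped. *Ldha* differed from wild type by 0.12 (SE 0.105, adjusted p = 0.545) in *Cilk1*-/- and by 0.25 (SE 0.113, adjusted p = 0.184) in the compound mutant. *Pgam1* and *Pkm* ranged from 7.21 to 7.77 and from 8.8 to 9.21, with differences of 0.20 (SE 0.099, adjusted p = 0.212) and 0.10 (SE 0.0917, adjusted p = 0.52) in the compound mutant. *Gapdh*, glyceraldehyde-3-phosphate dehydrogenase, was listed at 3.65, 3.44, 3.72 and 3.52 in wild type, 3.72, 4.18, 3.7 and 3.98 in *Cilk1*-/- and 3.36, 3.57 and 3.91 in the compound mutant. The level was low for this enzyme and the groups overlapped. *Gapdh* differed from wild type by 0.31 (SE 0.134, adjusted p = 0.222) in *Cilk1*-/- and by 0.03 (SE 0.144, adjusted p = 0.917) in the compound mutant. *Gapdh* has many near-identical copies in the mouse genome that can take its reads, so these values are uncertain.

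Whether the PCS1-MRCS1 deletion added to the difference was asked by comparing the compound mutant with *Cilk1*-/- directly. In limma, 0 of 38 members were called (0.155% of all genes higher and 0.388% lower), and 0 passed the adjusted p with no fold limit (1.18% and 2.15%). An unadjusted p under 0.05 was reached by 15 higher members and 1 lower member, *Hif1a*, against 10.9% and 12.3% of all genes. With the replicate block these numbers were 9 and 1 (6.4% and 7.89%). With the protocol-set term they were 6 and 1, where 11.5% of all genes passed in either direction. With the compound mutant in the block of replicate 4 they were 4 and 1 (2.23% and 3.72%). The compound mutant libraries share a protocol text with replicate 4 of *Cilk1*-/- only, so genotype and protocol set cannot be fully told apart. In 9 members every compound mutant library exceeded every *Cilk1*-/- library (7.74% of all genes), and in *Hif1a* the reverse held (9.3%). The median difference was 0.21 for HIF targets and 0.13 for glycolytic genes. The largest differences by adjusted p were in *Pfkfb3*, at 0.49 (SE 0.126, adjusted p = 0.0614), and in *Adm*, at 0.25 (SE 0.065, adjusted p = 0.0627). Without compound mutant replicate 1, *Pfkfb3* was called in this comparison, as were 0.501% of all genes in either direction, and without replicate 3, *Ankrd37* was, as were 2.15%. With no fold limit, 5 members rose (*Ankrd37*, *Adm*, *P4ha2*, *Ddit4* and *Ero1l*) and *Hif1a* fell without replicate 3, where 11.6% of all genes passed, and *Hk1* rose and *Pfkfb4* fell without replicate 2, where 8.56% did.

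The members also varied together between libraries of one genotype. Compound mutant replicate 2 was the highest of all 11 libraries for 25 of 38 members, 14 HIF targets and 11 glycolytic genes. Compound mutant libraries were highest for 33 members in all and *Cilk1*-/- libraries for 5, and a wild-type library was the lowest for 31. The share of all genes with such extremes was not computed, so these counts are not read as a trait of these members. After each genotype mean was removed, the library medians of HIF targets and glycolytic genes had a correlation of 0.92 over 11 libraries. These points share the library and its normalisation, and same-numbered wild-type and *Cilk1*-/- libraries mirror each other, so the correlation is a description. *Pfkl*, *Pgk1*, *Tpi1*, *Pkm* and *Ldha* followed the glycolysis median most closely, with correlations of 0.99, 0.98, 0.98, 0.98 and 0.97. Each of these genes is part of that median. Among HIF targets, *Higd1a* and *Slc16a3* had the highest correlations with it, 0.91 and 0.88. *Ankrd37*, which differed strongly between genotypes, had -0.02, and *Hk1*, *Mxi1*, *Pfkp* and *Aldoc* had negative values between -0.54 and -0.23.

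**Figure D5:**
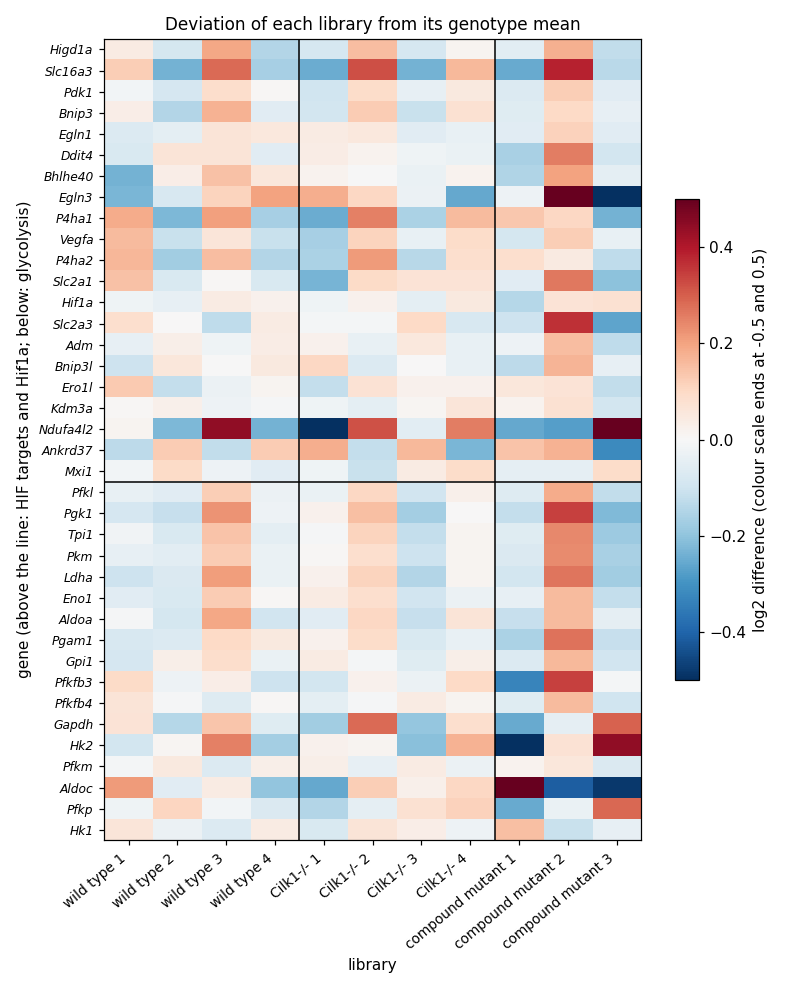
Deviation of each library (columns) from its genotype mean, in log2 units, for each member (rows), ordered within each group of genes by correlation with the glycolysis median. Wild-type replicate 3, Cilk1-/- replicates 2 and 4 and compound mutant replicate 2 are above their genotype means for most members, and same-numbered wild-type and Cilk1-/- libraries tend to have opposite colours.

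Other genes of the pathway were read from lists of regulators, further targets and adjoining metabolism. Of 12 HIF regulators, 1 was called in the compound mutant (0.615% of all genes called higher). *Epas1*, which encodes HIF-2 alpha, differed by 0.61 (SE 0.15, adjusted p = 0.0412, 0.148 with the replicate block), with 3.69, 3.04 and 3.83 in the compound mutant against 2.85 to 3.03 in wild type. *Epas1* kept an adjusted p under 0.05 in 1 of the 11 fits that left out a library, with 0.102 without compound mutant replicate 1 and 0.0733 without replicate 3. *Siah2*, a ubiquitin ligase that acts on EGLN proteins, was higher in the compound mutant than in *Cilk1*-/- by 0.37 (SE 0.0811, adjusted p = 0.0405, 0.215 with the replicate block), and passed in 1 of those 11 fits. Of all genes, 1.18% were higher in the compound mutant than in *Cilk1*-/- at an adjusted p under 0.05. Over the regulators, the median difference from wild type was 0.02 for *Cilk1*-/- and -0.01 for the compound mutant. Of 30 further HIF targets, 29 were listed, with medians of 0.11 and 0.18. In the compound mutant 6 of these rose (*Car9*, *Ak4*, *Gys1*, *Jmjd6*, *Narf* and *Sdc4*) and *Igfbp3* fell, against 2.82% and 3.75% of all genes. The called genes were *Car9*, a carbonic anhydrase, at 0.62 (SE 0.15, adjusted p = 0.038, 0.159 with the replicate block), and *Ak4*, a mitochondrial adenylate kinase, at 0.62 (SE 0.0994, adjusted p = 0.0103, 0.0797 with the replicate block). Without compound mutant replicate 1, *Car9* differed by 0.41 (adjusted p = 0.0463, limma), under 1.5-fold, so its call was lost. Over the 11 fits that left out a library, *Ak4* passed in 11, *Sdc4* in 9, *Narf* in 8, *Car9* in 4, *Gys1* and *Igfbp3* in 3 and *Jmjd6* in 2. In *Cilk1*-/-, *Ak4* rose by 0.40 (SE 0.092, adjusted p = 0.0495, 0.175 with the replicate block) and *Narf* by 0.25 (SE 0.0349, adjusted p = 0.0132, 0.14 with the replicate block), and *Igfbp3*, an insulin-like growth factor binding protein gene, had a difference of -0.33 (SE 0.0503, adjusted p = 0.0154, 0.141 with the replicate block), and they passed in 3, 8 and 6 of the 11 fits. Of all genes, 1.06% rose and 1.38% fell in *Cilk1*-/-. Among 29 listed genes of adjoining glucose metabolism, *Mpc1*, a subunit of the mitochondrial pyruvate carrier, rose in the compound mutant by 0.22 (SE 0.0505, adjusted p = 0.0315, 0.166 with the replicate block). *Tkt*, the transketolase of the pentose phosphate pathway, fell in *Cilk1*-/- with a difference of -0.29 (SE 0.0653, adjusted p = 0.0479, 0.186 with the replicate block), and *Pck2* was higher in the compound mutant than in *Cilk1*-/- by 0.33 (SE 0.0714, adjusted p = 0.0389, 0.206 with the replicate block). *Mpc1*, *Tkt* and *Pck2* passed in 6, 3 and 2 of the 11 fits. Of all genes, 2.82%, 1.38% and 1.18% passed in the same comparison and direction as *Mpc1*, *Tkt* and *Pck2*. Single genes of a list this long lie near such shares and are not read as a result about glucose metabolism. The medians of this list were -0.06 and 0.01.

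Levels of other cell types were set beside these results. Summed over 6 endothelial markers, the linear level was 87.0 to 106 in wild type, 81.0 to 97.5 in *Cilk1*-/- and 89.1 to 96.2 in the compound mutant, and 0 of 6 were called in any comparison in limma. Over 10 listed erythroid markers it was 2850 to 3743, 2920 to 4133 and 1038 to 3706. Skeletal muscle markers (9 of 10 listed) summed to 8.80 to 27.4, 17.99 to 49.3 and 5.86 to 7.81. Of these 9, 3 were called lower in the compound mutant than in *Cilk1*-/- (0.388% of all genes). Neuronal markers summed to 17.4 to 22.9, 28.4 to 31.1 and 32.5 to 194, so that the genotypes did not overlap, and 1 of 7 was called higher in the compound mutant. Cartilage markers (7 of 8 listed) summed to 25.7 to 35.2, 26.4 to 39.96 and 41.5 to 702, and none of the 7 was called in limma. *Acan* and *Matn1*, which define cartilage, were listed at 0.52 and 0.47 at most in wild type, and at 5.03 and 4.66 in compound mutant replicate 1. Macrophage markers (5 of 6 listed) summed to 27.4 to 34.7, 28.6 to 33.9 and 21.1 to 33.9, and 5 Schwann cell and glial markers to 9.95 to 11.7, 12.2 to 15.2 and 11.9 to 26.9. The tissue's own markers were lowest in compound mutant replicate 1, where 8 dental epithelial markers summed to 486 (715 and 1201 in replicates 2 and 3, 837 to 1126 in the 8 other libraries) and 8 dental mesenchymal markers to 389 (710 and 555, and 614 to 768). Immediate early genes, which respond to tissue handling, summed to 65.3 to 70.2, 60.1 to 66.8 and 81.7 to 139. Of these 8 genes, 1 was called higher in the compound mutant than in wild type (0.615% of all genes). Against *Cilk1*-/-, 1 was called higher in the compound mutant (0.155%). Their part in the changes of the hypoxia and glycolysis genes was not tested. Of the samples that share a protocol text with the compound mutant, replicate 4 was the only wild-type library. The 8 called members were higher in the compound mutant than in that library by 0.67 to 1.12 (log2, no test). In the set of 3 wild-type and 3 *Cilk1*-/- libraries, the 5 members that rose in *Cilk1*-/- were higher by 0.20 to 0.53. Both groups of members were picked on these same libraries, so positive differences were largely fixed in advance and are no separate support.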

How the data were processed

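RNA was sequenced by the authors from pooled E14.5 maxillary molar tooth germs, in 4 wild-type, 4 *Cilk1*-/- and 3 compound mutant libraries, grouped by sample title. The submitters' processing notes name mm10, HISAT2 2.0.5 and featureCounts 1.5.0-p3, and the methods state that FPKM was calculated. The deposited table holds log2 values of 16755 genes, which fit log2(value + 1) of a normalised value; the unit is not named, 257 genes have a value below 0, and the step that gave these is not given in the sources used here. On the linear scale each library sums to 339970 to 364615. The table holds no read counts, so depth is unknown and no count model could be fitted. limma (3.58.1, R 4.3.3; lmFit and eBayes with trend and robust) was therefore used in place of the planned count test, with one fit on all 11 libraries and Benjamini-Hochberg adjustment over all 16755 genes. Calls required both an adjusted p under 0.05 and a 1.5-fold difference. Folds refer to log2(value + 1), so changes of weakly listed genes are understated. The script was tested on simulated data. The simulated libraries were drawn independently, and the planted differences were larger than those of the members. That test therefore does not cover the link between same-numbered libraries.

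Members with an adjusted p under 0.05 in any comparison, or an unadjusted p under 0.05 with 1.5-fold, 6 more by size, and *Hif1a*, *Vegfa* and *Ldha* are given in every library, and the others as ranges. Companion genes are named at an adjusted p under 0.05. Members and lists were chosen with earlier results of these data known. Alternatives were the replicate block, a protocol-set term, only the groups compared, no trend or robust option, a mean of at least 1, a pseudocount of 0.1, quantile normalisation, median centring, other thresholds and each library left out. A block with the compound mutant in the block of replicate 4 was chosen after seeing the data. Over all genes, deviations of same-numbered wild-type and *Cilk1*-/- libraries had correlations of -0.74, -0.89, -0.85 and -0.79. With the compound mutant library of the same number, correlations lay between -0.12 and 0.26. The numbers thus link wild-type and *Cilk1*-/- libraries, in opposite directions, and the source of this link is unknown and was not tested. Such a link widens the spread of their difference, so p-values from the fit without the block can be too small in this comparison. The comparisons also share wild-type or *Cilk1*-/- libraries. Where nothing says that libraries came from separate litters, p-values measure the spread between these libraries. Gene positions for distances came from GENCODE vM21 (GRCm38) and promoter windows from RefSeq (GRCm38.p6), with *Ero1l* matched as *Ero1a*. Files were read with Python 3.11.15 and pandas 2.3.3.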

Additional observations from a re-analysis of the deposited data

Results flagged for a closer look

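Within groups of 4 libraries, 3 of 76 combinations of a member and a genotype had 1 library farther from the rest than Dixon's 95% critical value for the gap divided by the range, and chance alone gives about 1 in 20. For *Slc2a1* in *Cilk1*-/-, replicate 1 was low, with a ratio of 0.892. For *Pfkl* in wild type (0.851) and *Pkm* in wild type (0.884), replicate 3 was high. The compound mutant has 3 libraries, so it was not examined in this way.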

How the results depend on the processing

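Counts of called members depended on the processing. Shares of all genes passing in either direction stand in brackets. In *Cilk1*-/- against wild type the count was 0 (0.37%). It was 1 with only these groups in the fit (0.776%), 1 with a pseudocount of 0.1 (0.734%) and 1 with quantile normalisation (0.352%). With an unadjusted p and 1.5-fold it was 1 (0.412% higher and 0.34% lower), and with no fold limit 5 (2.44%). When each library was left out it was 0 to 2 (0.0895% to 0.567%). In the compound mutant against wild type the count was 8 (1.25%). It was 1 with only these groups (0.203%), 1 with the protocol-set term (0.107%) and 2 with the replicate block (0.155%). With the compound mutant in the block of replicate 4 it was 0 (0%), and with no fold limit 20 (6.58%). When each library was left out it was 5 to 9 (0.477% to 4.0%), with 5 without wild-type replicate 2 or 4 (0.567% and 0.477%). In the compound mutant against *Cilk1*-/- it was 0 (0.543%), and 0 to 1 when each library was left out (0.215% to 2.15%). Calls lost under the block were made with the libraries taken as independent. Same-numbered wild-type and *Cilk1*-/- libraries were linked. Correlations with the compound mutant library of the same number, over all genes, lay between -0.12 and 0.26. The block also estimates more terms from the same libraries, and why calls were lost was not tested. Median differences of both lists moved by less than the spread between libraries under all alternatives except library omission: 0.32 to 0.51 for HIF targets (0.51 without compound mutant replicate 3) and 0.14 to 0.33 for glycolysis in the compound mutant against wild type, and 0.0016 to 0.17 for glycolysis against *Cilk1*-/-, with both glycolysis minima without compound mutant replicate 2. Of the single-member results, 2021 kept their direction and side of the threshold, 183 lost and 44 gained an adjusted p under 0.05, and 29 changed sign, all of them small differences that did not pass the test. With quantile normalisation these were *Pkm* (-0.077) in *Cilk1*-/-, and *Slc2a3* (-0.0099) and *Pfkfb4* (-0.016) in the compound mutant. With the protocol-set term or the block of replicate 4, they were *Hif1a* (-0.0019) against wild type and *Egln3* (0.0023) against *Cilk1*-/-. The other changes of sign came with 1 library left out. Over the 11 omissions the difference ranged, in *Cilk1*-/- against wild type, for *Pfkm* -0.0020 to 0.038 and *Pkm* -1.2e-05 to 0.070. In the compound mutant against wild type it ranged for *Bnip3l* -0.049 to 0.099, *Gapdh* -0.12 to 0.16, *Hif1a* -0.0049 to 0.10, *Pfkfb4* -0.046 to 0.085, *Pfkp* -0.094 to 0.18, *Pkm* -0.019 to 0.18 and *Slc2a3* -0.16 to 0.16. Against *Cilk1*-/- it ranged for *Egln3* -0.29 to 0.23, *Gpi1* -0.0029 to 0.13, *Ldha* -0.0062 to 0.21, *Pfkp* -0.20 to 0.073, *Pgk1* -0.083 to 0.20, *Pkm* -0.047 to 0.15, *Slc2a3* -0.089 to 0.22 and *Tpi1* -0.089 to 0.12. The cause was not tested. Depth is unknown, so members near the bottom of the scale, such as *Adm*, have unknown counting error.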

Other observations

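The mean difference of *Adm* from wild type was negative in *Cilk1*-/- (-0.14) and positive in the compound mutant (0.11). Neither difference passed the test in the fit on all 11 libraries. Its promoter window held GCGTG but not ACGTG, whereas the windows of *Bnip3*, *Ddit4* and *Ankrd37* held both. *Pdk1*, *Kdm3a* and *Pfkl*, which rose in the compound mutant, likewise held GCGTG but not ACGTG. The contrast between *Adm* and the other genes shown therefore does not extend to all members. The member windows of *Gpi1* and *Tpi1* held neither, and *Gpi1* rose in the compound mutant.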
